A study of Mus musculus with 9 samples.

Results

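Colony-stimulating factors, platelet-derived, vascular endothelial and epidermal growth factors are secreted or shed ligands that bind receptors on the cell surface, and several of them are held near the cell by heparan sulfate. Macrophages make many of these ligands and depend on Csf1r, the receptor for macrophage colony-stimulating factor, for survival; alveolar macrophages also depend on GM-CSF, whose receptor pairs Csf2ra with Csf2rb. Suramin, a highly negatively charged drug, can keep several heparin-binding growth factors from binding their receptors. The genes described here are 10 such ligands and receptors, chosen by symbol: the ligands Csf1, Hbegf, Vegfa, Vegfb, Pdgfa and Pdgfb, the receptor genes Csf1r, Csf2ra and Csf2rb, and Gdf15, a stress-induced cytokine of the TGF-beta superfamily. All 10 were found among the 14771 genes of the table, and all 10 passed the filter on low counts that left 11281 genes for testing. On GRCm38 the colony-stimulating factor genes lie at chr3:107741048-107760469 (Csf1), chr18:61105572-61131139 (Csf1r), chr19:61217191-61228461 (Csf2ra) and chr15:78325800-78351001 (Csf2rb). The growth factor genes lie at chr18:36504927-36515805 (Hbegf), chr17:46016993-46032377 (Vegfa), chr19:6982472-6987651 (Vegfb), chr5:138976014-139000792 (Pdgfa) and chr15:79995865-80024614 (Pdgfb), and Gdf15 at chr8:70629393-70632470. Counts cover whole genes, so no exon or isoform is singled out. Only mRNA was measured, so ligand binding and receptor activity are not addressed.

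RNA was sequenced from MH-S, a cell line of mouse alveolar macrophages grown in medium with 10% fetal bovine serum, in 3 groups of 3 libraries. SUR cells are labelled suramin, and the treatment protocol gives that group 200 µM suramin together with 1 µg/ml lipopolysaccharide (LPS, a bacterial outer membrane component sensed by TLR4) for 4 h. LPS cells received 1 µg/ml LPS for 4 h, and CON cells received medium. No time is given for CON, so whether it was matched to the 4 h is not known. No group received suramin alone, so SUR against LPS compares LPS-treated cells with and without suramin. Whether the libraries of a group are separate cultures is not stated in the labels; the p-values therefore cover the spread among these libraries alone, and that spread may be technical.

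Total counts per library ran from 15729402 to 16675250. All 7 macrophage markers were expressed (summed level 3596 to 6291 FPKM in SUR, 3351 to 5999 FPKM in LPS and 3731 to 6254 FPKM in CON; FPKM is a level per transcript length). Of 11 markers of alveolar macrophages, 7 had a row; Fabp4, Mrc1 and Itgax were present at 8.33 to 11.2, 13.5 to 38.8 and 1.84 to 3.29 FPKM, whereas Siglecf, Marco, Chil3 and Pparg stayed at or below 0.4 FPKM in every library. No marker of epithelial cells, fibroblasts, endothelium, lymphocytes or neutrophils passed the filter, and their summed levels reached at most 1.37 FPKM. The libraries numbered 1 stood apart in every group. For 258 of the 11281 tested genes (2.29%) they lay more than 1 log2 unit from the mean of numbers 2 and 3. The direction was the same in all 3 groups for these genes. The count was not made for number 2 or number 3. Same-numbered libraries also deviated together, most clearly those numbered 1. Values with the library number as a block in the fit are therefore given where they change a call.

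Csf1, the gene of macrophage colony-stimulating factor, gave the largest counts among the ligands. It stood at 327, 436 and 423 CPM (library-scaled counts, TMM) in SUR 1 to 3, at 965, 1479 and 1284 CPM in LPS 1 to 3, and at 267, 283 and 225 CPM in CON 1 to 3. The LPS libraries were the highest without overlap, and the SUR libraries lay between those of LPS and those of CON. Csf1 rose 4.81-fold in LPS against CON (log2 fold change 2.27, SE 0.177, adjusted p = 7.14e-05). Tests here are edgeR quasi-likelihood F tests adjusted by Benjamini-Hochberg over all tested genes, with a call made below 0.05. SUR cells had 3.14-fold less than LPS cells (-1.65, SE 0.174, adjusted p = 0.000474). In bulk RNA, fewer cells that express a gene and less RNA per cell cannot be told apart. Against CON the SUR libraries were 1.53-fold higher (0.61, SE 0.17), which was not called without the block (adjusted p = 0.233) and was called with it (0.00514). The authors' deposited table gives this difference a q-value of 0.00535.

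Gdf15 encodes a cytokine that cells release under mitochondrial, amino acid or inflammatory stress and that acts on a hindbrain receptor. Its level was 9.74, 11.1 and 11.2 CPM in SUR, 25.2, 28.2 and 24.9 CPM in LPS, and 6.13, 4.08 and 3.69 CPM in CON. The 3 groups did not overlap, and the lowest raw count behind these values was 62, in CON 3. Gdf15 rose 5.62-fold in LPS against CON (log2 fold change 2.49, SE 0.18, adjusted p = 6.04e-05), and it was 2.44-fold lower in SUR than in LPS (-1.29, SE 0.168, adjusted p = 0.00126). In SUR it was 2.3-fold higher than in CON (1.2, SE 0.179, adjusted p = 0.0375; 0.00121 with the block). That last call was lost in 8 of 9 fits that left out 1 library (every library but CON 1; adjusted p up to 0.217), and with the 6 libraries of the 2 groups alone (0.161). The direction was the same within each library number, at 0.66, 1.42 and 1.57 on the log2 scale for numbers 1, 2 and 3.

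**Figure D1:**
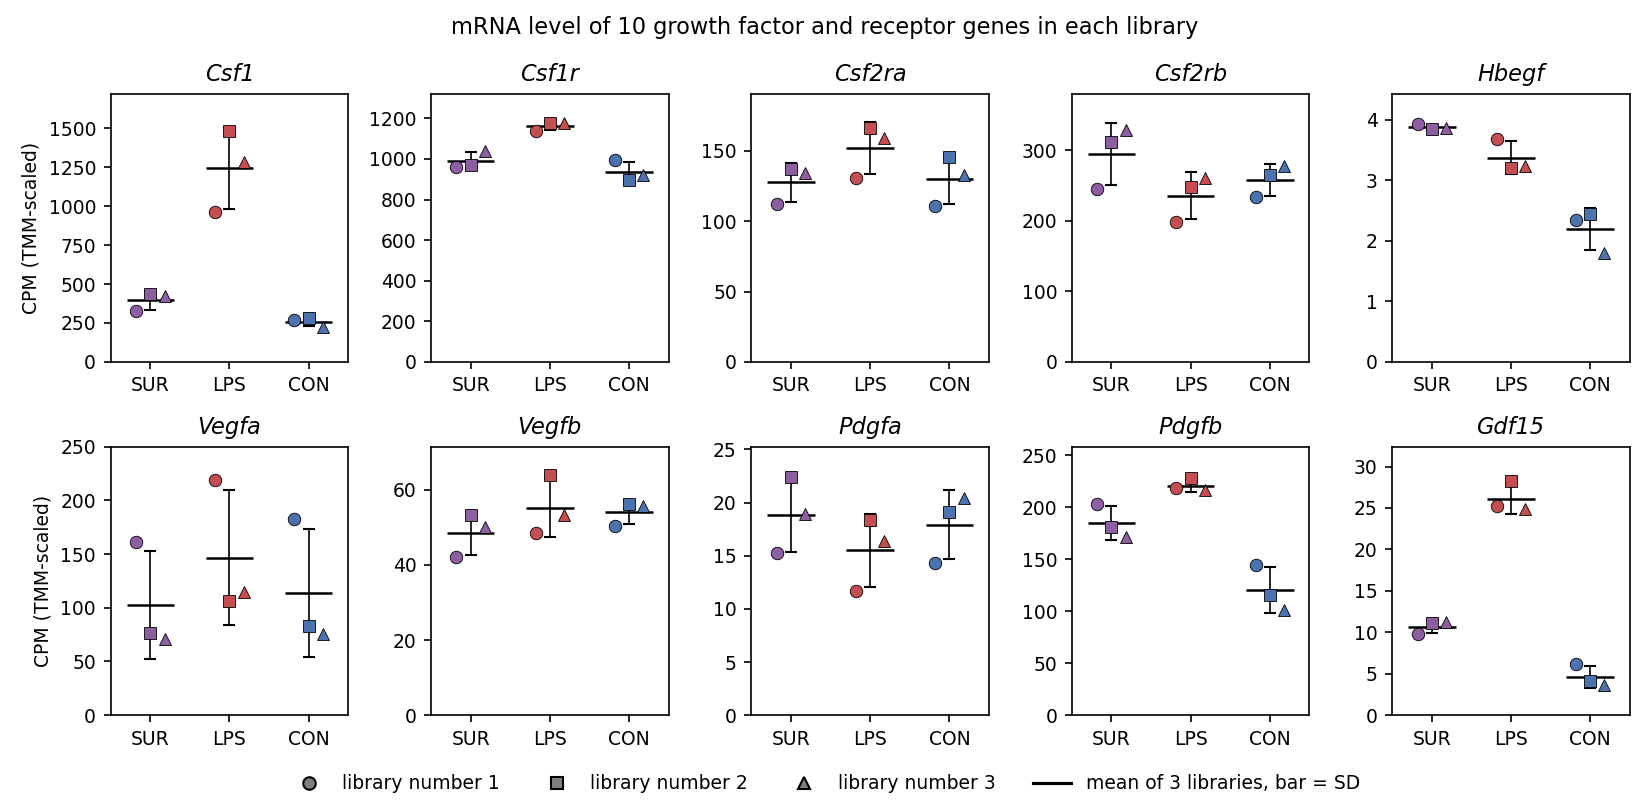
Level of each gene in CPM (linear axis from 0) in the SUR, LPS and CON libraries; symbols give the library number, the line the mean and the bar the SD of 3 libraries. Csf1 and Gdf15 are highest in all 3 LPS libraries, and the circles of Vegfa, library number 1, lie above the other symbols in every group.

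The sequences just upstream of Csf1, Gdf15 and Vegfa are printed to set the ligands with the largest LPS differences beside a ligand whose promoter also holds an NF-kappaB match. Of the 10 genes, 6 had a RefSeq promoter entry (GRCm38.p6) that could be used here. Each run is 250 bases long, ends at the base before the start site and is read 5′ to 3′ on the minus strand; capitals mark the NF-kappaB matches.
Csf1, chr3:107760470-107760719: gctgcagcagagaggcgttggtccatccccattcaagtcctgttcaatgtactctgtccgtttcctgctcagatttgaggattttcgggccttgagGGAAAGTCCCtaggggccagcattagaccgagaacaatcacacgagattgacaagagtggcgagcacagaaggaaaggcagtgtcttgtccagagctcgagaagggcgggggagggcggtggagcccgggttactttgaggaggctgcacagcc
Gdf15, chr8:70632457-70632706: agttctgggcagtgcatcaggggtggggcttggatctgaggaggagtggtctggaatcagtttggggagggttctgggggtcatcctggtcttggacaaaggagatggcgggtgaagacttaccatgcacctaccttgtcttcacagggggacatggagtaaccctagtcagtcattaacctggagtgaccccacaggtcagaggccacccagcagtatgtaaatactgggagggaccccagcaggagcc
Vegfa, chr17:46032378-46032627: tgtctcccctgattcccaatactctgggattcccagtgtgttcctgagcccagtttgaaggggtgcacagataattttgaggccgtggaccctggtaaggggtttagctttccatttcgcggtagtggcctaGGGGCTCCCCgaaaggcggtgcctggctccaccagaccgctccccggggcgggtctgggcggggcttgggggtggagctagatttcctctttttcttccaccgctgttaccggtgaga
The NF-kappaB match lies at -154 to -145 in Csf1 and at -118 to -109 in Vegfa, counted from the start site, and the Gdf15 run holds none. Such a match, searched on either strand, occurs in 3.9% of 32841 RefSeq promoter runs of the same length. Csf1 and Vegfa each hold 2 GC boxes (GGGCGG), which occur in 32.7% of promoters, and Gdf15 holds 0. None of the 3 runs matches AP-1 (TGANTCA, 6.75% of promoters), CRE (TGACGTCA, 1.55%), C/EBP-ATF (TGATGNAA, 3.45%) or the hypoxia element core (ACGTG, 16.6%). The motifs found in the 3 printed runs do not overlap each other. Other RefSeq start sites of Gdf15 and Vegfa, not printed, were searched too. There the hypoxia core matched at -83 to -79 and -82 to -78 in Gdf15. In Vegfa it matched at -211 to -207, beside a GC box at -158 to -153. These are letter matches only and say nothing of factor binding.

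Csf1r, the receptor tyrosine kinase for Csf1 and interleukin-34, differed less between groups than its ligand. It stood at 961, 972 and 1040 CPM in SUR, 1137, 1176 and 1179 CPM in LPS, and 993, 897 and 919 CPM in CON. All LPS libraries lay above all others, and SUR overlapped CON. Csf1r rose 1.24-fold in LPS against CON (log2 fold change 0.31, SE 0.0621, adjusted p = 0.00743), although on FPKM this was 0.18 with an adjusted p of 0.0558. In SUR it was 1.17-fold lower than in LPS (-0.23, SE 0.062, adjusted p = 0.0326). This call was lost with upper-quartile scaling (adjusted p = 0.126), on FPKM (0.292), and when any 1 of the libraries CON 3, LPS 1, LPS 2, LPS 3, SUR 1, SUR 2 or SUR 3 was left out (up to 0.0965). In SUR against CON the difference was 0.08 (SE 0.062, adjusted p = 0.839).

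The ratio of Csf1 to Csf1r, taken within each library from FPKM, does not depend on how libraries are scaled. On the log2 scale it averaged -1.38 ± 0.21 in SUR, 0.0 ± 0.29 in LPS and -1.89 ± 0.18 in CON (SD, n = 3 each). The ligand mRNA was thus 0.328 to 0.434 of the receptor mRNA per length in SUR, 0.808 to 1.2 in LPS and 0.243 to 0.31 in CON. The groups did not overlap in any comparison; the two-sided exact permutation test gave p = 0.1 each time, the smallest it can give with 3 libraries against 3 (0.171 after adjustment over the 12 comparisons of 4 ratios).

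The GM-CSF receptor subunits had differences of opposite sign in LPS against CON and in SUR against LPS. These were called with the library number as a block. Csf2ra, the subunit that binds GM-CSF, stood at 112, 137 and 134 CPM in SUR, 131, 166 and 159 CPM in LPS, and 111, 146 and 133 CPM in CON. Csf2rb, the signalling subunit shared with the receptors for interleukin-3 and interleukin-5, stood at 245, 311 and 328 CPM in SUR, 198, 247 and 261 CPM in LPS, and 233, 264 and 277 CPM in CON. For each subunit the libraries of the groups overlapped, with number 1 the lowest in every group. Csf2ra differed by 0.23 in LPS against CON (SE 0.129, adjusted p = 0.296) and by -0.25 in SUR against LPS (SE 0.129, adjusted p = 0.229). With the block both were called (0.000521 and 0.000305). The Csf2ra difference in SUR against CON was -0.02 (SE 0.129, adjusted p = 0.999) and was not called with the block (0.762). Csf2rb differed by -0.13 in LPS against CON (SE 0.137, adjusted p = 0.632; 0.0283 with the block). In SUR against LPS it differed by 0.32 (SE 0.137, adjusted p = 0.153; 0.000182 with the block), and in SUR against CON by 0.19 (adjusted p = 0.818; 0.0246 with the block). On FPKM, where the median gene is shifted by 0.131 in SUR against LPS and by -0.131 in LPS against CON, the Csf2rb difference between SUR and LPS was 0.45 and was called without the block (0.0403). On the same scale the Csf2ra difference was 0.08 in LPS against CON (adjusted p = 0.704) and -0.1 in SUR against LPS (0.628), and that of Csf2rb in LPS against CON was -0.27 (0.175). With 1 library left out, Csf2rb in LPS against CON ran from -0.21 (without LPS 3) to -0.02 (without LPS 1), and without the libraries numbered 1 it was -0.08 (adjusted p = 0.378). In SUR against LPS it ran from 0.21 (without LPS 1) to 0.43 (without SUR 1).

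Per library, the log2 ratio of Csf2ra to Csf2rb was 0.29, 0.23 and 0.14 in SUR, 0.81, 0.83 and 0.7 in LPS, and 0.35, 0.57 and 0.36 in CON. The LPS ratios were the highest and the SUR ratios the lowest, with no overlap in any comparison. Mean differences were 0.35 in LPS against CON, -0.56 in SUR against LPS and -0.21 in SUR against CON, each with an exact permutation p of 0.1 (0.171 adjusted). Csf2rb can share reads with Csf2rb2, a neighbouring near-identical copy that encodes an interleukin-3-specific subunit in mice, and its estimated counts were fractional in 9 of 9 libraries. Csf2rb values are therefore uncertain. Counts of Csf2ra were also fractional, in 6 of 9 libraries, and those of Pdgfb in 2 of 9, so shared reads may touch these genes too. Csf2rb2 itself stood at 205, 233 and 236 CPM in SUR, 156, 190.4 and 191 CPM in LPS, and 162, 201 and 204 CPM in CON. With the counts of the 2 genes summed, an alternative chosen after seeing the data, the difference was 0.32 in SUR against LPS (adjusted p = 0.117) and -0.11 in LPS against CON (0.678).

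**Figure D2:**
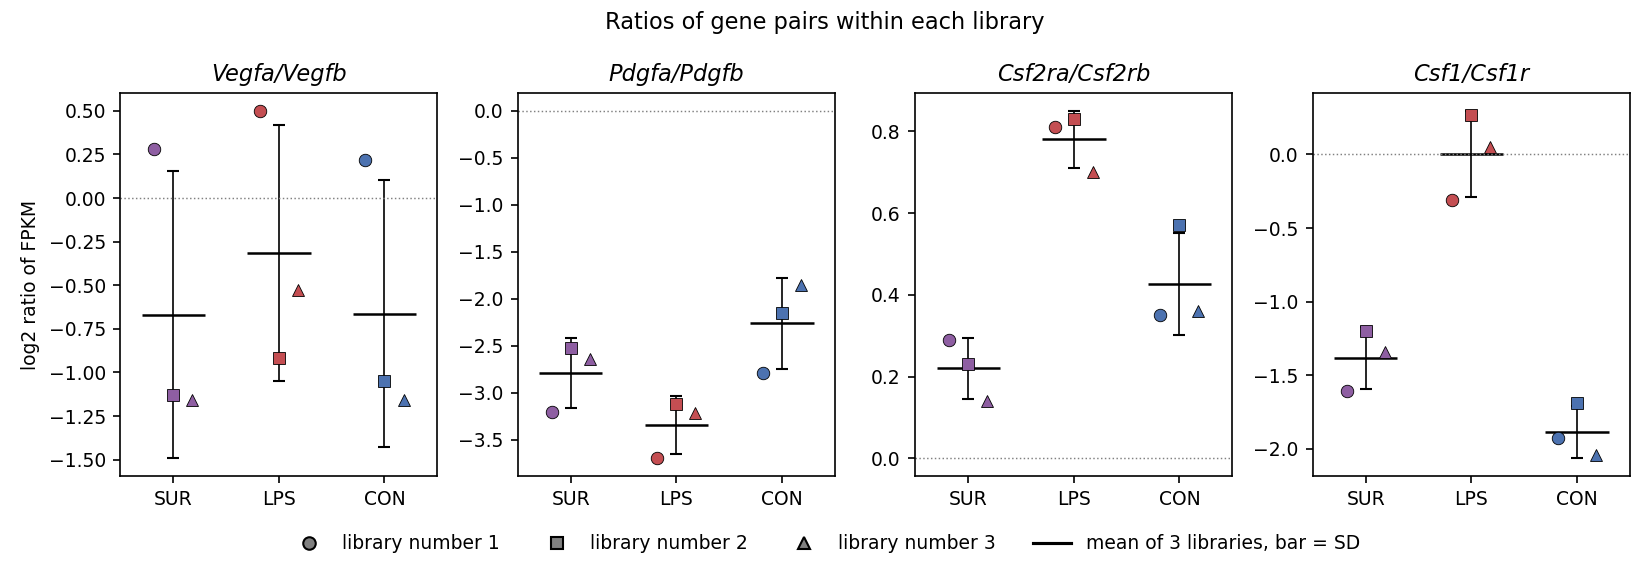
Log2 ratio of FPKM of 2 genes within each library (axis ranges differ between panels; line, mean; bar, SD of 3 libraries). LPS libraries have the highest Csf1/Csf1r and Csf2ra/Csf2rb ratios, while Vegfa/Vegfb separates by library number.

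Hbegf, the heparin-binding ligand of the epidermal growth factor receptor, was the least abundant of the 10 genes. It was counted 65 to 68 times per library in SUR, 47 to 58 times in LPS and 30 to 40 times in CON. Its level was 3.92, 3.84 and 3.86 CPM in SUR, 3.68, 3.2 and 3.23 CPM in LPS, and 2.34, 2.44 and 1.79 CPM in CON. All SUR libraries lay above all LPS libraries, and these above all CON libraries. Hbegf rose 1.54-fold in LPS against CON (log2 fold change 0.62, SE 0.168, adjusted p = 0.0325), a call lost with DESeq2 (0.0555), upper-quartile scaling (0.0546), the 6 libraries alone (0.0814), without the libraries numbered 1 (0.0588), and when CON 3, LPS 1, LPS 2, LPS 3, SUR 2 or SUR 3 was left out (up to 0.11). The authors' deposited table gives it a q-value of 0.205. The SUR libraries differed from LPS by 0.2 (SE 0.162, adjusted p = 0.474), and from CON by 0.82 (SE 0.166, adjusted p = 0.103; 0.00839 with the block).

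The platelet-derived growth factor chains also differed from each other. Pdgfb stood at 203, 180.4 and 171 CPM in SUR, 218, 228 and 216 CPM in LPS, and 144, 115 and 101 CPM in CON. On this scale the 3 groups did not overlap. In FPKM, SUR (69.2 to 84.7) overlapped LPS (78.7 to 84.1), and both lay above CON (42.4 to 58.5). Pdgfb rose 1.84-fold in LPS against CON (log2 fold change 0.88, SE 0.125, adjusted p = 0.00138). In SUR it was 0.62 above CON (SE 0.125), which was not called without the block (adjusted p = 0.103) and was called with it (0.000757) and without CON 1 (0.00527); the authors' deposited table gives a q-value of 0.00746. Against LPS the SUR difference was -0.26 (SE 0.124, adjusted p = 0.208; 0.0143 with the block), and on FPKM it was -0.11 (0.579).

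Pdgfa, the partner chain with which Pdgfb can form a heterodimer, was less abundant than Pdgfb in every library and overlapped between all groups. It stood at 15.3, 22.4 and 18.9 CPM in SUR, 11.7, 18.4 and 16.4 CPM in LPS, and 14.3, 19.1 and 20.4 CPM in CON. Its difference was -0.21 in LPS against CON (SE 0.208, adjusted p = 0.609; 0.0626 with the block) and 0.28 in SUR against LPS (SE 0.208, adjusted p = 0.422; 0.0163 with the block). Within numbers 1, 2 and 3 it was higher in SUR than in LPS by 0.38, 0.28 and 0.21. The log2 ratio of Pdgfa to Pdgfb averaged -2.79 ± 0.37 in SUR, -3.35 ± 0.31 in LPS and -2.26 ± 0.48 in CON. LPS libraries lay below CON libraries without overlap (difference -1.08, exact permutation p = 0.1), and SUR overlapped both LPS (0.56, p = 0.2) and CON (-0.53, p = 0.3). These tests do not use the library number. Within numbers 1, 2 and 3 the ratio in SUR differed from LPS by 0.49, 0.6 and 0.58, and from CON by -0.42, -0.36 and -0.79, with 1 sign throughout each comparison.

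Vegfa, the main angiogenic ligand of the family, varied more between library numbers than between groups. It stood at 161, 76.7 and 70.9 CPM in SUR, 219, 106 and 115 CPM in LPS, and 183, 82.8 and 75.7 CPM in CON. Library 1 exceeded the mean of libraries 2 and 3 by 2.18-fold in SUR, 1.98-fold in LPS and 2.31-fold in CON. Without the block the difference was 0.36 in LPS against CON (SE 0.449, adjusted p = 0.699) and -0.51 in SUR against LPS (SE 0.45, adjusted p = 0.519). With 1 library left out, the SUR against LPS value ran from -1.0 (without SUR 1) to -0.1 (without LPS 1). Within numbers 1, 2 and 3, LPS exceeded CON by 0.25, 0.36 and 0.6 on the log2 scale, and SUR differed from LPS by -0.44, -0.47 and -0.7. With the block these became 0.4 (SE 0.0594, adjusted p = 0.000282) and -0.53 (SE 0.0597, adjusted p = 4.24e-05). Without the libraries numbered 1 they were 0.49 (adjusted p = 0.000295) and -0.6 (8.69e-05). The difference between SUR and CON was -0.15 (adjusted p = 0.999), or -0.13 with the block (0.178).

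Vegfb, a related ligand that binds Flt1 but not Kdr, stood at 42, 53.4 and 50.2 CPM in SUR, 48.6, 63.9 and 53.3 CPM in LPS, and 50.4, 56.2 and 55.7 CPM in CON. The groups overlapped. Its difference was 0.03 in LPS against CON (SE 0.121, adjusted p = 0.924), with a sign that turned with upper-quartile scaling (-0.07) and on FPKM (-0.11). Its difference between SUR and LPS was -0.19 (SE 0.121, adjusted p = 0.356; 0.022 with the block), and in SUR against CON -0.16 (0.851). The ratio of Vegfa to Vegfb overlapped between all groups (exact permutation p = 0.5, 0.5 and 1.0). Taken within numbers 1, 2 and 3, this ratio in LPS exceeded that in CON by 0.28, 0.14 and 0.63, and SUR differed from LPS by -0.22, -0.22 and -0.63; SUR differed from CON by 0.07, -0.08 and 0.0.

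**Figure D3:**
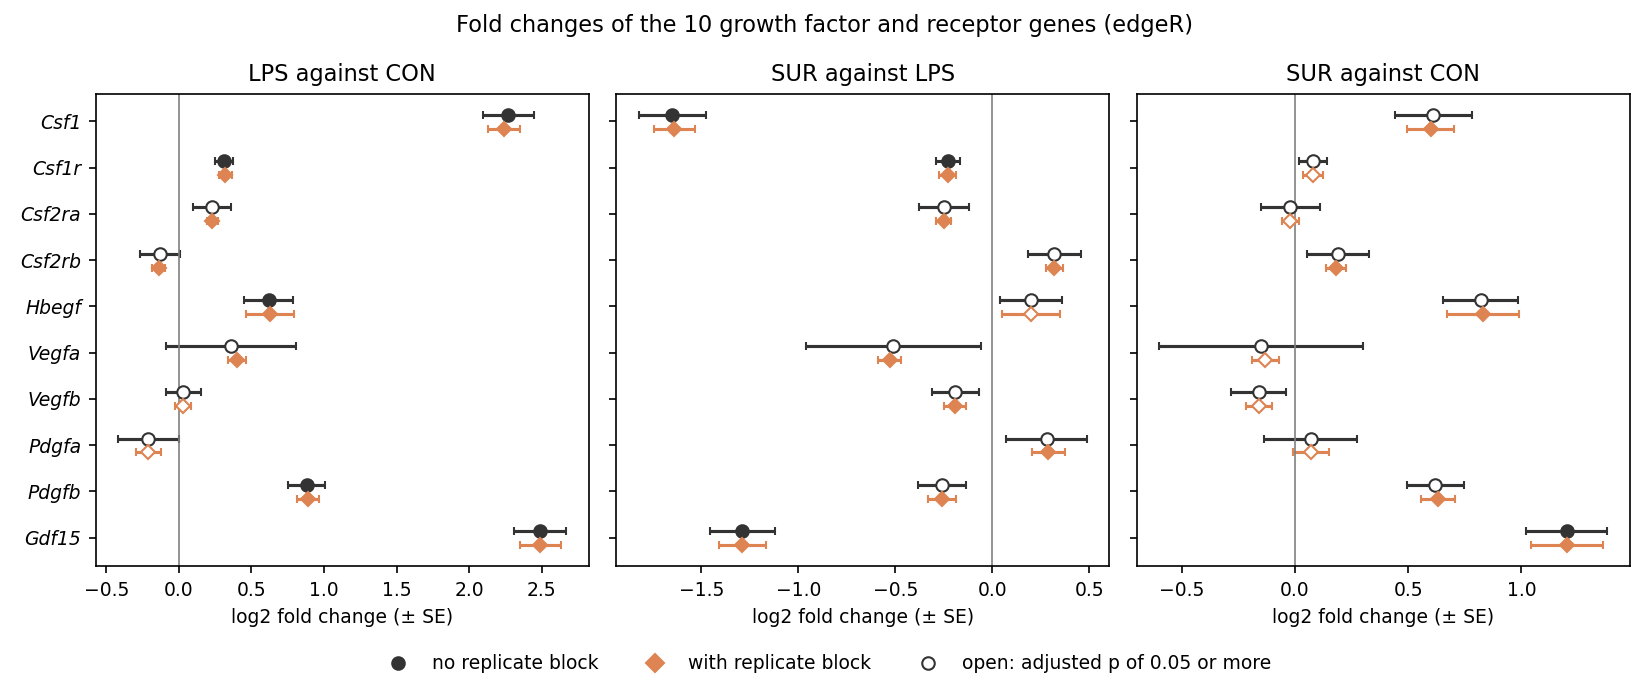
Log2 fold change and SE (edgeR) of each gene in LPS against CON, SUR against LPS and SUR against CON, without (circles) and with (diamonds) the library number as a block; filled symbols have an adjusted p under 0.05. Csf1 and Gdf15 have the largest changes in LPS against CON (2.27 and 2.49), and the error bars of Vegfa shrink with the block.

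In LPS against CON, 5 of the 10 genes were higher and 0 lower; 18.3% of all tested genes were called, 8.98% as higher and 9.36% as lower. The same 5 (Csf1, Gdf15, Pdgfb, Hbegf and Csf1r) had LPS libraries that all lay above the CON libraries, as did 15.2% of tested genes (16.8% had them all below). The median log2 fold change of the 10 was 0.34, against -0.009 over all tested genes. With the block, 7 were higher and 1, Csf2rb, was lower, beside 41.8% of tested genes called, 20.1% higher and 21.7% lower. Among SUR against LPS calls, 0 were higher and 3 (Csf1, Gdf15 and Csf1r) were lower, where 17.2% of all tested genes were called, 9.29% as higher and 7.93% as lower. The libraries did not overlap for 4 lower genes (these 3 and Pdgfb, 17.2% of tested genes) and for 1 higher gene (Hbegf, 17.8%). The median was -0.24, against -0.006 over all tested genes. With the block 2 were higher (Pdgfa and Csf2rb) and 7 lower, beside 45.3% of tested genes called, 22.6% as higher and 22.7% as lower. These comparisons share the LPS libraries. For SUR against CON, 1 of 10, Gdf15, was higher, where 0.425% of all tested genes were called, 0.39% as higher and 0.0355% as lower. With the block 5 were higher (Csf1, Gdf15, Pdgfb, Hbegf and Csf2rb), beside 7.37% of tested genes higher and 4.18% lower. SUR libraries lay above CON libraries without overlap for 4 genes (Csf1, Gdf15, Pdgfb and Hbegf), as did 8.35% of tested genes (6.67% had them all below).

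The split of calls over all genes moved with the scaling. In LPS against CON 49.0% of 2069 called genes were higher, against 30.9% of 2474 with upper-quartile scaling and 25.0% of 2719 on FPKM. In SUR against LPS 53.9% of 1943 called genes were higher, against 72.1% of 2211 and 79.2% of 2488. The directions of the called changes of Csf1, Gdf15, Pdgfb, Hbegf and Csf1r held under each scaling.

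Per transcript length, Csf1r was the most abundant of the 10 genes in SUR (284 ± 11.3 FPKM) and in CON (268 ± 15.6 FPKM). In LPS, Csf1 at 308 ± 62 FPKM overlapped Csf1r at 303 ± 3.07 FPKM (SD, n = 3). Csf1 ranked next after Csf1r in SUR at 109 ± 15.8 FPKM, and in CON, at 72.6 ± 7.49 FPKM, it overlapped Csf2ra at 79.6 ± 10.6 FPKM. Csf2ra, Csf2rb, Pdgfb, Vegfb and Vegfa averaged 34.9 to 83.8 FPKM in all groups. Among these, Csf2ra overlapped Pdgfb in SUR and in LPS, Pdgfb overlapped Csf2rb in SUR, Vegfb overlapped Vegfa in SUR, and Csf2rb overlapped Vegfb and Vegfa in LPS; in CON the run from Csf2rb through Vegfb and Pdgfb to Vegfa overlapped at each step. Pdgfa stood at 11.1, 8.17 and 10.4 FPKM in SUR, LPS and CON. Gdf15 stood at 9.33, 20.6 and 3.99 FPKM, and so lay above Pdgfa in LPS, below it in CON, and overlapping it in SUR. Hbegf was the lowest in each group, at 1.9 ± 0.0416 FPKM in SUR, 1.5 ± 0.137 FPKM in LPS and 1.07 ± 0.165 FPKM in CON.

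The partners of these genes differed widely in level. Csf2, the gene of GM-CSF, had at most 1 count in any library, so the ligand mRNA of Csf2ra and Csf2rb was close to undetected. Csf3, the gene of granulocyte colony-stimulating factor, averaged 0.3 ± 0.0917 FPKM in SUR, 4.38 ± 2.25 FPKM in LPS and 0.02 ± 0.0346 FPKM in CON; it was chosen after its values were seen. It rose in LPS against CON (adjusted p = 0.000401) and was lower in SUR than in LPS (adjusted p = 0.00202). Il34, the other ligand of Csf1r, stayed at 0.22 to 0.333 FPKM on average. The VEGF receptor genes Flt1 and Kdr and the PDGF receptor gene Pdgfrb averaged at most 0.147 FPKM in any group. The neuropilin co-receptors were abundant, with Nrp1 at 39.8, 37.3 and 41.4 FPKM and Nrp2 at 63.9, 74.9 and 62.1 FPKM in SUR, LPS and CON. Nrp2 was 1.26-fold higher in LPS than in CON (log2 fold change 0.33, adjusted p = 0.0429), a call lost with upper-quartile scaling, on FPKM and in 7 of 9 fits without 1 library (adjusted p up to 0.145).

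The lists of related genes that follow are counts of calls, to be read beside the shares of all tested genes. Without the block these shares were 8.98% higher and 9.36% lower in LPS against CON, 9.29% and 7.93% in SUR against LPS, and 0.39% and 0.0355% in SUR against CON; with the block they were 20.1% and 21.7%, 22.6% and 22.7%, and 7.37% and 4.18%. Processing factors of the ligands were measured in the EGF and in the VEGF and PDGF families. Among 6 tested genes of 18 listed EGF family ligands, receptors and sheddases, 2 rose and 0 fell in LPS against CON (median -0.03, against -0.009 over all tested genes). They were Rhbdf2, which encodes iRhom2, a chaperone of the sheddase ADAM17, at 155 ± 29.4 CPM in LPS and 59.4 ± 4.04 CPM in CON (log2 fold change 1.38, SE 0.147, adjusted p = 0.000311), and Adam17 itself, at 190 ± 7.33 CPM in LPS and 117 ± 13.2 CPM in CON (0.71, adjusted p = 0.000623). For SUR against LPS, 0 rose and 2 fell (median -0.01), again Rhbdf2, at 65.1 ± 7.96 CPM in SUR (-1.25, adjusted p = 0.000811), and Adam17, at 137 ± 6.66 CPM in SUR (-0.47, adjusted p = 0.00567). These 4 calls held in each of the 19 alternatives run. Adam17 is known to shed pro-HB-EGF, the product of Hbegf, and also Csf1 and its receptor from the cell surface. Among 6 tested genes of 14 listed VEGF and PDGF family genes, 2 rose in LPS against CON (median 0.27), Nrp2 and Furin, which encodes a convertase that cleaves PDGF and TGF-beta family precursors (0.64, SE 0.155, adjusted p = 0.0194; lost without LPS 2 or LPS 3, up to 0.0731; without CON 1 only 1 of the list rose). Between SUR and LPS, Furin alone fell (-0.55, adjusted p = 0.0408; median of the list -0.25), a call lost with upper-quartile scaling, on FPKM and without any 1 of 7 libraries (up to 0.133); with the block 2 fell.

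Other ligands and receptors of the colony-stimulating factor family, listed with signalling genes of the receptors, changed in part. Of 14 tested, 4 rose and 0 fell in LPS against CON (median -0.03), beside 8.98% and 9.36% of all tested genes. They were the ligand gene Csf3 and the signalling genes Pim1, Cish and Jak2. Socs2 (-0.51, adjusted p = 0.215), Stat5a (-0.23, 0.165) and Stat5b (-0.07, 0.545) were not called without the block, and with it Stat5a was lower (0.0268). Pim1, a survival kinase gene induced by STAT5, stood at 623 ± 57 CPM in LPS and 51.2 ± 47.2 CPM in CON (log2 fold change 3.6, SE 0.607, adjusted p = 0.00332), and without CON 1 its log2 fold change was 4.66. Cish, a STAT5-induced inhibitor of cytokine signalling, stood at 39.6 ± 11.6 CPM in LPS and 4.6 ± 1.53 CPM in CON (3.1, adjusted p = 0.00048). Jak2, the kinase bound to the shared beta subunit, stood at 70.8 ± 18.4 CPM in LPS and 33 ± 2.62 CPM in CON (1.1, adjusted p = 0.00307). For SUR against LPS, 0 rose and 3 fell (median 0.03), beside 9.29% and 7.93% of all tested genes, and with the block 3 rose and 5 fell, beside 22.6% and 22.7%. Those that fell without it were Csf3, Cish at 13 ± 4.69 CPM in SUR (-1.61, adjusted p = 0.0103) and Jak2 at 33 ± 3.57 CPM in SUR (-1.1, adjusted p = 0.00394). Between SUR and CON, calls were made with the block, where 4 rose and 1 fell, beside 7.37% and 4.18% of all tested genes.

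Transcription factors linked to Csf1r and GM-CSF signalling in macrophages split by direction. Of 11 tested, 5 rose and 3 fell in LPS against CON (median 0.43; 7 and 4 with the block), beside 8.98% and 9.36% of all tested genes (20.1% and 21.7% with the block). Egr2, induced by Csf1 in macrophages, stood at 76.5 ± 18.6 CPM in LPS and 7.15 ± 3.21 CPM in CON (log2 fold change 3.42, adjusted p = 0.000199). Ets2, a target of Ras and ERK signalling, rose 5.99-fold (2.58, adjusted p = 0.000364), and Cebpb, a regulator of inflammatory genes, rose 2.21-fold (1.15, adjusted p = 0.00198). In SUR against LPS 2 rose and 3 fell (median -0.18; 4 and 5 with the block). Ets2 was 4.32-fold lower in SUR (-2.11, adjusted p = 0.00133) and Bhlhe40, a factor of proliferating resident macrophages, 1.77-fold lower (-0.82, adjusted p = 0.00207). Cebpa, a myeloid lineage factor, was 1.7-fold higher in SUR than in LPS (0.76, adjusted p = 0.000277). For SUR against CON, Egr2 was the 1 gene called (3.15, adjusted p = 0.0117; lost without CON 2 or CON 3, up to 0.0897, and with the 6 libraries alone; 4 rose and 2 fell with the block).

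Genes that ERK signalling induces, with its feedback inhibitors, changed in 10 of 14 cases in LPS against CON: 8 rose and 2 fell (median 1.14), beside 18.3% of all tested genes called, 8.98% higher and 9.36% lower. Phlda1 stood at 30.9 ± 1.84 CPM in LPS and 1.58 ± 0.755 CPM in CON (log2 fold change 4.28, adjusted p = 3.67e-05), and Dusp5, an ERK phosphatase gene, rose 5.79-fold (2.53, adjusted p = 0.00103). Dusp6, another ERK phosphatase gene, was 4.86-fold lower in LPS than in CON (-2.28, adjusted p = 0.000311). For SUR against LPS, 3 rose and 8 fell (median -0.55), beside 9.29% and 7.93% of all tested genes, with Phlda1 3.63-fold lower (-1.86, adjusted p = 0.000838), Fosl1, an AP-1 subunit gene, 3.5-fold lower (-1.81, adjusted p = 0.00718) and Dusp6 3.3-fold higher (1.72, adjusted p = 0.0018). In SUR against CON 2 rose and 0 fell, beside 0.39% and 0.0355% of all tested genes (6 and 2 with the block, beside 7.37% and 4.18%): Egr1, an immediate-early factor, by 2.77 (adjusted p = 0.00493) and Phlda1 by 2.42 (adjusted p = 0.012). The Egr1 call was lost without CON 2 (0.0668) and that of Phlda1 without CON 2, CON 3 or SUR 3 (up to 0.0897). Unlike Phlda1, Egr1 was higher in SUR than in LPS (0.96, adjusted p = 0.0176, and 9.49e-06 with the block). Egr1 was also higher in LPS than in CON (1.81, adjusted p = 0.000936).

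Gdf15 is known as a target of the integrated stress response and of p53. The list for these responses and the Gdf15 promoter, Egr1 among its genes, held 15 tested genes. Of these, 8 rose and 3 fell in LPS against CON (median 0.51), beside 8.98% and 9.36% of all tested genes. Atf3, a stress-induced factor that can bind the human GDF15 promoter, stood at 1144 ± 157 CPM in LPS and 163 ± 64.4 CPM in CON (log2 fold change 2.81, adjusted p = 0.000207). Ppp1r15a, the phosphatase subunit that ends the stress response, stood at 879 ± 83.8 CPM in LPS and 80.1 ± 79.2 CPM in CON (3.46, adjusted p = 0.00556; 4.65 without CON 1), whereas Ddit4, an inhibitor of mTOR signalling, was 4.08-fold lower (-2.03, adjusted p = 9.22e-05). Ddit3 (-0.94, adjusted p = 0.00111) and Sesn1 (-1.17, adjusted p = 0.000659) also fell in LPS against CON. Mdm2 (1.67, adjusted p = 4.02e-05), Cdkn1a (1.16, 6.2e-05) and Bbc3 (1.5, 0.00313) were among those that rose. Atf4 (0.33, adjusted p = 0.334), Asns (0.09, 0.826), Trib3 (-0.46, 0.337) and Sesn2 (0.1, 0.65) were not called without the block. With it Atf4 was called higher (0.000113) and Trib3 lower (8.51e-05). Between SUR and LPS, 3 of the 15 rose and 5 fell (median -0.29), and 5 and 9 with the block. Atf3 stood at 175 ± 36.7 CPM in SUR, 6.54-fold lower than in LPS (-2.71, adjusted p = 0.000416). Mdm2, the p53-induced inhibitor of p53, was 2.18-fold lower (-1.12, adjusted p = 0.000282), and Sesn1, another p53 target, was 2.66-fold higher (1.41, adjusted p = 0.000422). For SUR against CON, Egr1 was higher and Ddit4 lower (-1.59, adjusted p = 0.0117; lost without CON 2, CON 3, SUR 2 or SUR 3, up to 0.0833), and with the block 6 rose and 2 fell.

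The hypoxia response, to which Vegfa is known to belong, was read from 14 genes, with Hif1a, the gene of its regulator, counted among them. Of these, 2 rose and 2 fell in LPS against CON (median 0.05), beside 18.3% of all tested genes called. With the block 6 rose and 4 fell, beside 41.8% of all tested genes called, and without CON 1, 5 rose and 2 fell. Slc2a1, the glucose transporter gene, rose 1.75-fold (0.81, adjusted p = 0.00923) and Hif1a 1.54-fold (0.62, adjusted p = 0.00166), while Ankrd37 was 3.49-fold lower (-1.8, adjusted p = 0.00825). For SUR against LPS, 0 rose and 4 fell (median -0.3; 1 and 10 with the block), beside 17.2% of all tested genes called (45.3% with the block), led by Slc2a1, 2.24-fold lower (-1.16, adjusted p = 0.00203), P4ha1, a collagen-modifying hydroxylase gene, 1.86-fold lower (-0.89, adjusted p = 0.00466), and Hif1a, 1.46-fold lower (-0.55, adjusted p = 0.00409). Between SUR and CON, calls were made with the block, where 8 fell, beside 4.18% of all tested genes. Of 15 tested genes of heparan sulfate proteoglycans and their synthesis, 2 rose and 2 fell in LPS against CON (median -0.12; 3 and 7 with the block), beside 18.3% of all tested genes called (41.8% with the block). Sdc4, a cell surface proteoglycan gene, stood at 2508 ± 269 CPM in LPS and 194 ± 158 CPM in CON (3.69, adjusted p = 0.00127; 4.59 without CON 1). Agrn, which encodes the matrix proteoglycan agrin, rose by 0.65 (adjusted p = 0.00212), and Ndst2, a heparan sulfate modifying enzyme gene, was 1.33-fold lower (-0.42, adjusted p = 0.00484). Sdc3 fell too (-0.32, adjusted p = 0.0188). In SUR against LPS 1 rose and 2 fell (median 0.08), beside 17.2% of all tested genes called. With the block 6 rose and 3 fell, beside 45.3% of all tested genes called. Sdc4 stood at 492 ± 45.9 CPM in SUR, 5.1-fold lower (-2.35, adjusted p = 0.0109). Agrn differed by -0.37 (adjusted p = 0.0331). Its call was lost with upper-quartile scaling, on FPKM and without any 1 of 6 libraries (up to 0.115). The gene that rose was Gpc1 (1.1, adjusted p = 0.0175), with only 10 to 35 counts per library. Of 8 tested genes of other growth factors and receptors reported as suramin-sensitive, 0 rose and 1 fell in LPS against CON (median 0.11; 4 and 2 with the block), beside 18.3% of all tested genes called (41.8% with the block), so 1 of 8 is no more than the background. The one that fell was Mdk, the gene of the heparin-binding factor midkine, at 1.06 ± 0.517 FPKM in SUR, 0.433 ± 0.239 FPKM in LPS and 1.82 ± 0.229 FPKM in CON (log2 fold change in LPS against CON -1.98, adjusted p = 0.0128), and it was named after its values were seen. Mdk had only 2 to 17 counts per library, so its call is imprecise, and no alternatives are given for it. For SUR against LPS, Tgfbr1, a TGF-beta receptor gene, was 1.42-fold higher (0.51, adjusted p = 0.0146; lost without SUR 2, 0.0725; median of the list -0.04).

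The genes with profiles most like those of Csf1 and Gdf15 were sought among 7701 tested genes, by the root mean square difference between mean-centred log2 CPM profiles over the 9 libraries. For Csf1 they were Arhgef3 (0.13), Itga5, an integrin subunit gene (0.137), and Zswim4 (0.152), where the profile of Csf1 itself spread by 0.971. For Gdf15, with a spread of 1.037, they were Icosl, a costimulatory ligand gene (0.103), Klf6, a zinc finger factor gene (0.136), and Relb, an NF-kappaB subunit gene (0.159). For Pdgfb, with a spread of 0.4, they were Tgif1 (0.066), Zeb2 (0.068) and Lysmd3 (0.097). For Vegfa, with a spread of 0.573 of which the library number is a part, they were Plk4 (0.127), Iqgap3 (0.16) and Ube2s (0.171). These likenesses are descriptions and carry no test.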

How the data were processed

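RNA of 9 MH-S libraries (3 each of SUR, LPS and CON) was extracted with Trizol and made into libraries with an MGIEasy kit, per the labels' protocols. Reads were aligned with HISAT2 2.0.4 to GRCm38 (mm10), per the submitters' processing notes; neither the counter nor the annotation is named there (not given in the sources used here). Expected counts (93.4% of values whole, with a tolerance of 0), FPKM and TPM were deposited for 14771 genes, and, per the file headers, log2 fold changes with DESeq2 p-values and q-values.

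Counts were rounded and tested with edgeR 4.0.16 in R 4.3.3 (filterByExpr, TMM, quasi-likelihood F test on all 9 libraries, Benjamini-Hochberg over 11281 genes, threshold 0.05), after tests on simulated data; SE is the fold change over the square root of F. CPM are TMM-scaled, and differences within a library number use log2 CPM with a prior count of 2. Ratios were compared with two-sided exact permutation tests (scipy 1.17.1 under Python 3.11.15), and figures drawn with matplotlib 3.10.9. Alternatives were RLE and upper-quartile scaling, no filter, DESeq2 1.42.0, limma-voom and limma 3.58.1 on log2(FPKM + 1) or log2(FPKM + 0.1), the 6 libraries of a comparison, omitted libraries and the library number as a block.

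The block is read beside the results because deviations from the group means correlated within library numbers. They correlated at 0.435 to 0.801 in all 9 same-numbered pairs, against -0.643 to 0.437 in 18 other pairs. Pairs of number 1 with number 2 or 3 ran from -0.643 to -0.521. Pairs of number 2 with number 3 ran from 0.347 to 0.437, close to same-numbered pairs of these 2 numbers (0.435 to 0.586). The contrast thus lay mostly between number 1 and the others. The labels do not say what a number stands for. The genes and lists were chosen with earlier results of these data known. From each list up to 3 called genes per comparison with the largest change are named, if their log2 CPM averaged 2 or more. Some further genes of the lists are named beside them, after their values were seen. Likeness was sought where log2 CPM averaged 4 or more. Total counts of 15729402 to 16675250 set the counting precision, and Hbegf, at 30 to 68 counts, is the least precise of the 10.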

Additional observations from a re-analysis of the deposited data

How the results depend on the processing

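With the replicate block, calls over all genes numbered 4714 in LPS against CON, 5109 in SUR against LPS and 1302 in SUR against CON, where the fit without it gave 2069, 1943 and 48; among the 10 genes the block gave 8, 9 and 5 calls, where the fit without it gave 5, 3 and 1. The block changed no call among the 10 genes other than those given beside the results. Without the libraries numbered 1, calls were 3415, 3391 and 587 over all genes, with 7 of the 10 in SUR against LPS and 5 in SUR against CON. In SUR against CON, DESeq2 called 257 genes and 4 of the 10, and the 6 libraries alone gave 4 genes and 0 of the 10. Leaving out 1 library gave 1379 to 2075, 1208 to 2054 and 0 to 168 calls over all genes, and 4 to 5, 2 to 3 and 0 to 2 among the 10, in the same order of comparisons. In SUR against CON the 2 came without CON 1, and 0 without any other library. The ratio of Vegfa to Vegfb ranged over -0.057 to 0.791, -0.831 to 0.052 and -0.481 to 0.436; its sign turned without LPS 1 (-0.057 and 0.052) and, in SUR against CON, without SUR 2 (0.228), SUR 3 (0.239) or CON 1 (0.436). The other ratios ranged over 1.761 to 2.047, -1.544 to -1.257 and 0.412 to 0.616 for Csf1 to Csf1r, 0.314 to 0.424, -0.6 to -0.517 and -0.244 to -0.134 for Csf2ra to Csf2rb, and -1.347 to -0.875, 0.382 to 0.769 and -0.788 to -0.315 for Pdgfa to Pdgfb. Signs of differences not called without the block also turned. Vegfa turned in LPS against CON, a difference called with the block, without LPS 1 (-0.04). In SUR against CON it turned without CON 1 (0.37), SUR 2 (0.03) or SUR 3 (0.06). Vegfb turned in LPS against CON with upper-quartile scaling (-0.07), on FPKM (-0.11) and without CON 1 (-0.01) or LPS 2 (-0.09). In SUR against CON, Pdgfa turned without CON 1 (-0.07) or SUR 2 (-0.07), and Csf2ra without CON 2 (0.07) or SUR 1 (0.06). With 1 library left out, Vegfa ranged over -0.04 to 0.9 in LPS against CON, -1.0 to -0.1 in SUR against LPS and -0.62 to 0.37 in SUR against CON, Vegfb over -0.09 to 0.12 in LPS against CON, and in SUR against CON Pdgfa over -0.07 to 0.21 and Csf2ra over -0.13 to 0.07. The cause was not tested. No change of the 10 genes that was called without the block turned its sign under the alternatives run.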
